A study of Mus musculus with 12 samples.

Results

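Lung gene expression after O3 was compared with that after air in obese db/db mice, using the 4 arrays labelled db/db, isotype antibody and ozone and the 4 arrays labelled db/db, isotype antibody and air. These are 8 of the 12 arrays of the series, and the comparison was fitted to them alone. Both groups were female mice on a C57BL/6 background, bought at 6 weeks of age and kept for a further 4 weeks, and RNA came from the left lung. The O3 group breathed 2 ppm O3 for 3 h and was studied 24 h later, and the study's methods give room air as the other exposure. All 8 arrays share the db/db mutation, which takes away the leptin receptor's long form, and an isotype control antibody. No air-exposed lean group was among the arrays, so the difference described here is that of O3 in obese mice given an antibody. The labels do not say whether each array is a separate animal, and the p values measure only the spread between these arrays.

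O3 is a reactive gas that oxidises the lipids and proteins of the airway lining, and the ciliated cells and club cells of the small airways are known as its early targets. Ciliated cells sweep mucus with motile cilia, whose core of microtubules is moved by dynein motors, and club cells secrete protective proteins and detoxify inhaled compounds. Surviving cells respond to oxidants through NRF2, a transcription factor that switches on glutathione and thioredoxin enzymes, and through the growth factors and cytokines of wound repair, after which cells re-enter the cell cycle and replace those that were lost.

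Signals are given on the log2 scale as the authors' RMA values, so that a difference of 1 is a 2-fold change. Array medians lay between 4.754 and 4.9. Pearson's r between arrays across genes was 0.9738 to 0.9918 within the O3 group, 0.984 to 0.9943 within the air group and 0.9658 to 0.9876 between the groups. Sftpc, the surfactant protein of alveolar type 2 cells, averaged 11.65 ± 0.12 in the O3 arrays and 11.89 ± 0.10 in the air arrays, and Scgb1a1, the defining secretoglobin of club cells, 11.12 ± 0.18 in the O3 arrays and 11.41 ± 0.16 in the air arrays (SD, n = 4 each), as a lung sample would hold. O3 replicate 4 and air replicate 3 stood apart on the second principal component, which carried 29.9% of the variance. Their brown fat gene Ucp1 read 10.20 and 10.12, against at most 5.08 in the other 6 arrays, and their 11 genes of skeletal muscle fibres averaged 7.85 and 7.41, against at most 4.71 in the other arrays. Actin alpha 1 of skeletal muscle, Acta1, chosen after its values were seen, had 9.35 in O3 replicate 4, against 9.01 in air replicate 3, with at most 5.26 elsewhere. The arrays with these genes lie in both groups.

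Calls were made where limma's p, adjusted by Benjamini-Hochberg over the 21490 genes tested, was under 0.05, and 1682 genes, 7.83%, were called. Of these, 1052 genes (4.9%) were higher and 630 (2.93%) were lower in the O3 arrays. In 1894 genes (8.81%) all O3 arrays lay above all air arrays, and in 1419 (6.6%) they lay below. The rises were mostly modest: 161 of the called genes were at least 2-fold higher, 18 at least 4-fold and 2 at least 8-fold, with a median rise of 0.59. Falls were fewer and steeper, with 170 genes at least 2-fold lower, 18 at least 4-fold lower and a median of -0.69. Called genes lay mainly at middle signals. Among genes averaging 6 to 8, 10.6% were higher and 4.59% lower, while among those under 4 the shares were 0.172% and 0.766%. Genes of signal 10 or more were called lower more often (3.59%) than higher (2.01%).

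**Figure D1:**
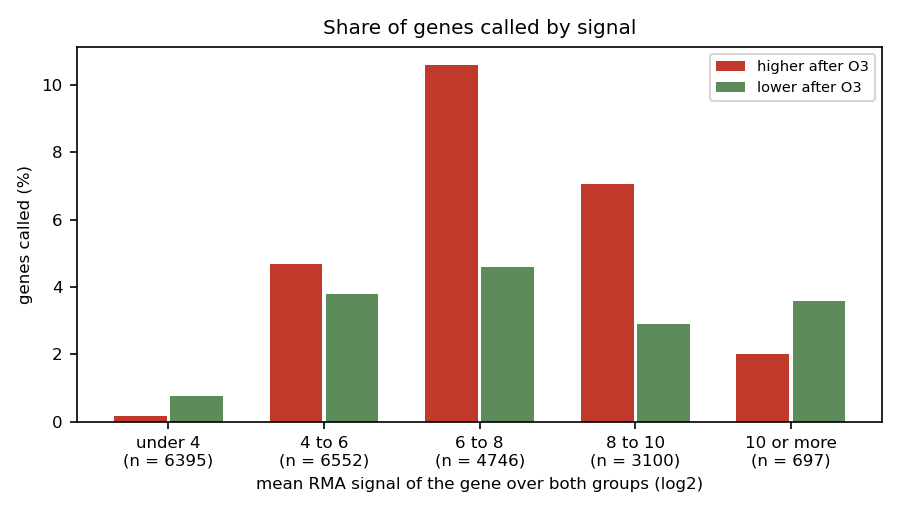
Share of genes called higher (red) and lower (green) in the O3 arrays, in % of the genes of each class, by the mean RMA signal (log2) over both groups; the number of genes in each class stands under it. The share called higher was largest, 10.6%, at signals of 6 to 8, and calls in the lowest class were few.

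The count depended on single arrays and on the samples fitted. It was 1027 without O3 replicate 1, 2657 without O3 replicate 2, 735 without O3 replicate 3, 797 without air replicate 1, 809 without air replicate 2 and 832 without air replicate 4, and 891 without the 2 arrays high in Ucp1. A fit that also held the 3 anti-IL-17A arrays and the wild-type array called 223 genes, and 611 genes, 342 higher and 269 lower, were called whichever of the 8 arrays was left out. The 1682 genes kept their direction in each of these fits, which was largely fixed in advance. The added arrays leave the means of the O3 and air groups unchanged. In 1020 of the higher and 618 of the lower genes the groups do not overlap, so leaving out arrays could not turn them. Of 138 called genes examined singly, most of them described below, 50 were also called in the fit of 12 arrays. Without the 2 arrays high in Ucp1, 19 of these 138 genes were not called, which were Timp1, Cyp2f2, Cbr2, Anln, Cdc20, Odc1, Rps19, Psmc2, Xbp1, Srxn1, Ccl22, Socs3, Il17rd, Nrg1, Serpina3n, Fkbp5, Cdkn1a, Usp18 and Rtkn2.

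Il6, the cytokine interleukin 6, and Timp1, an inhibitor of matrix metalloproteinases, were the genes that rose more than 8-fold. Il6 signal was 7.31, 6.86, 7.86 and 6.66 in the O3 arrays, against 4.15, 3.95, 3.82 and 3.43 in the air arrays. Every O3 array lay far above the air arrays, and the air values were among the dimmer signals of the arrays. The difference was 3.34 ± 0.26 (SE), or 10.1-fold, with an adjusted p of 9.27e-04 by limma, and the exact two-sided permutation test gave p = 0.029, the smallest value that the 70 assignments of 4 against 4 allow and the value of every gene whose groups do not overlap. Timp1 read 9.15, 8.81, 9.36 and 8.39 in the O3 arrays, against 7.93, 4.54, 4.90 and 4.80 in the air arrays. Air replicate 1 was high, 0.46 under the lowest O3 array, and the other air arrays lay at 4.54 to 4.90. Its difference of 3.38 ± 0.68 (10.4-fold, adjusted p 0.0213) ranged in adjusted p from 0.00095 to 0.0948 over the alternatives, and the call was lost without O3 replicate 1, O3 replicate 3, air replicate 2, air replicate 3 or air replicate 4.

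Tnc, which encodes the matrix glycoprotein tenascin C of healing tissue, read 7.27, 7.96, 8.37 and 7.35 in the O3 arrays, against 5.42, 5.07, 4.36 and 4.94 in the air arrays, a difference of 2.79 ± 0.29 (adjusted p 0.00154). The O3 arrays were all above 7 and the air arrays all below 5.5. Other large rises were those of Fbxo15, an F-box protein of ubiquitin ligases (2.51 ± 0.37), Alpl, tissue-nonspecific alkaline phosphatase (2.48 ± 0.28), and Fam3b, a secreted cytokine-like protein (2.44 ± 0.23). Mfsd2a, a transporter of lysophosphatidylcholine, rose by 2.13 ± 0.31, and Tgm1, a transglutaminase that crosslinks proteins at the surface of squamous cells, by 2.11 ± 0.33. Tnfrsf23, a mouse decoy receptor for the death ligand TRAIL, rose by 2.10 ± 0.26, Tnip3, a partner of the NF-kB inhibitor A20, by 2.09 ± 0.24, and Fgg, the gamma chain of fibrinogen, by 2.08 ± 0.26. These 8 genes had adjusted p between 0.00115 and 0.00803 and were called whichever of the 8 arrays was left out.

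**Figure D2:**
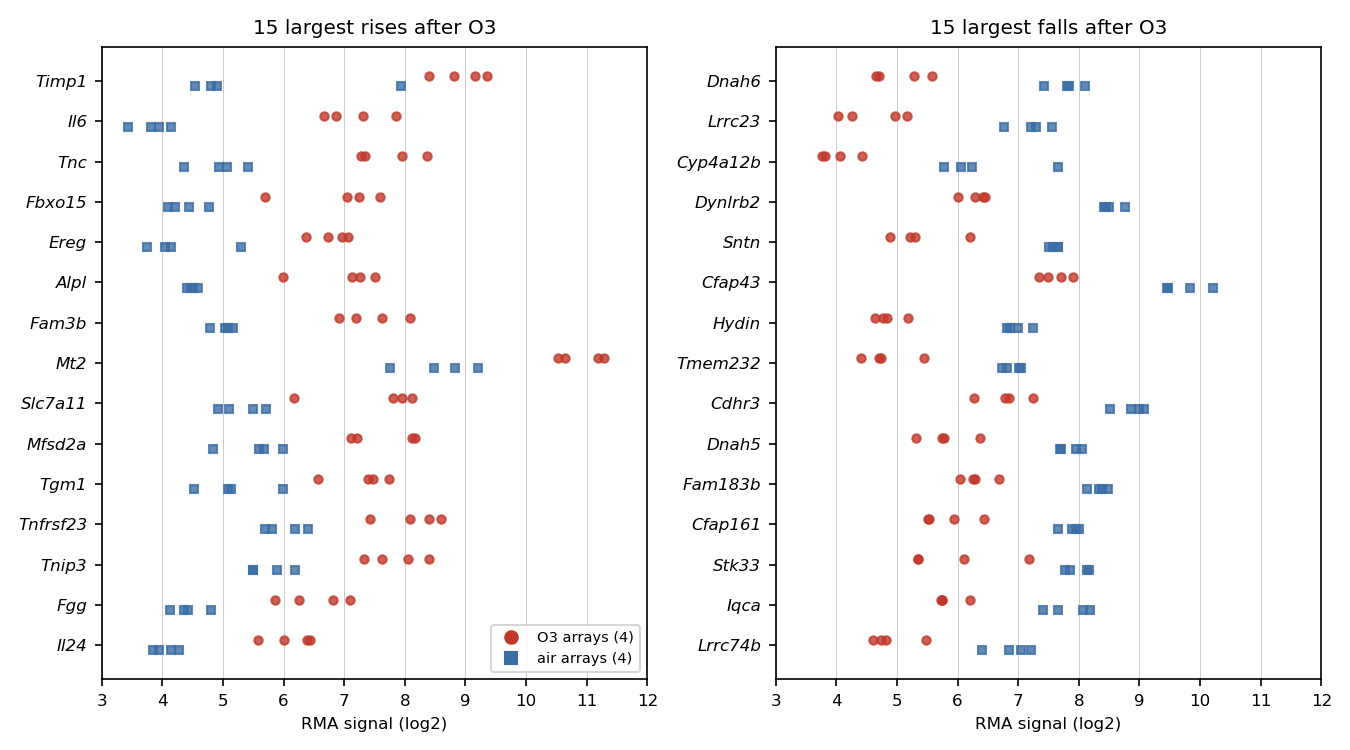
RMA signal (log2) of the 15 largest rises (left) and the 15 largest falls (right) among called genes whose groups do not overlap, with 1 red circle per O3 array and 1 blue square per air array. Il6 and Tnc lie far from their air arrays, Timp1 in air replicate 1, at 7.93, stands near its O3 arrays, and 11 of the 15 falls are genes described below as parts of cilia or of ciliated cells.

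Genes of motile cilia made up most of the steep falls. Dynlrb2, a light chain of the dynein motors, read 6.29, 6.46, 6.01 and 6.42 in the O3 arrays, against 8.50, 8.76, 8.41 and 8.44 in the air arrays. All O3 arrays lay between 6.01 and 6.46 and all air arrays above 8.4, so that the groups were far apart for their spread. The difference was -2.24 ± 0.12 (SE), 4.71-fold lower, with an adjusted p of 1.58e-04. Dnah6, a dynein heavy chain, had the largest fall of the named genes, -2.74 ± 0.22, with 4.65, 5.28, 4.70 and 5.57 in the O3 arrays, against 7.83, 8.10, 7.43 and 7.81 in the air arrays. O3 replicates 2 and 4 were the least low, still below every air array. Hydin, a protein of the central pair of microtubules, averaged 4.86 ± 0.23 in the O3 arrays and 6.98 ± 0.19 in the air arrays (SD, n = 4 each) and fell (difference -2.12 ± 0.14).

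Dnah5, an outer arm dynein whose loss causes primary ciliary dyskinesia in mice and people, read 5.75, 5.78, 5.31 and 6.37 in the O3 arrays, against 7.95, 8.06, 7.69 and 7.70 in the air arrays. O3 replicate 4 was the highest of its group and the O3 arrays did not reach the air arrays (difference -2.05 ± 0.20, adjusted p 0.00136). Falls of similar size were found for Lrrc23, a radial spoke protein (-2.61 ± 0.27), Sntn, a protein of the ciliary tip (-2.20 ± 0.24), Cfap43, a protein of the axoneme (-2.13 ± 0.19), and Cdhr3, a cadherin of ciliated cells (-2.08 ± 0.20). Tmem232 fell too (difference -2.09 ± 0.20), as did the cilium-associated proteins Fam183b (-2.02 ± 0.14), Cfap161 (-2.02 ± 0.20) and Iqca (-1.97 ± 0.18). The kinase gene Stk33 fell (difference -1.99 ± 0.37), with O3 replicate 4 at 7.18 against 5.34 to 6.11 in the other O3 arrays, and its adjusted p of 0.0159 (range 0.000869 to 0.197 over the alternatives) passed 0.05 without air replicate 1 and in the fit of 12 arrays.

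Of the 20 measured genes on a list of ciliated cell markers, 14 were called lower, against 2.93% of all genes, and none was called higher. In 17 of the 20, all O3 arrays lay below all air arrays, against 6.6% of all genes, and the median difference was -1.22, against 0 over all genes. The mean signal of the list was 5.74, 5.57, 5.44 and 6.02 in the O3 arrays, against 6.85, 6.91, 6.83 and 6.68 in the air arrays. Each O3 array was lower than each air array, and O3 replicate 4 was the least low. The called members span the axoneme: Dnah9 (-1.42 ± 0.13) and Dnaic1 (-1.37 ± 0.14) of the outer dynein arm, Rsph1 (-1.93 ± 0.18) of the radial spoke, and Hydin and Spag17 (-1.54 ± 0.14) of the central pair. Foxj1, the transcription factor that switches on the ciliary programme, read 4.69, 4.52, 4.35 and 4.26 in the O3 arrays, against 4.61, 4.83, 4.70 and 4.68 in the air arrays. Those ranges overlapped, and its difference of -0.25 ± 0.10 was not called (adjusted p 0.188, 0.0909 to 0.437 over the alternatives). Limma's unadjusted p was 0.0418. Every reading lay below or within the range of the array medians, 4.754 to 4.9. Mdh1b, with a similar mean of 4.69 in the air arrays, averaged 3.63 in the O3 arrays and was called lower. Whether the low signal of Foxj1 hid a fall was not tested, and the missing call does not mean that Foxj1 was unchanged. This gene was singled out after its values were seen. In whole lung RNA, fewer ciliated cells and less ciliary RNA per cell cannot be told apart, and the same holds for every other cell type named here. The count of ciliated markers was 10 to 15 when 1 array was left out and 4 in the fit of 12 arrays.

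The promoters of 3 of these genes are shown because the letters GTTGCC, the core of the site bound by RFX factors that act with FOXJ1 on ciliary genes, stand in them. They are 300-base windows from RefSeq (GRCm38.p6), 250 bases before to 50 after the gene's start, printed 5′ to 3′ on the gene's strand, with GTTGCC or its reverse complement in capitals. Dynlrb2 lies at chr8:116504765-116505064, plus strand, with 1 match, Fam183b at chr11:58801911-58802210, minus strand, with 2, and Cfap161 at chr7:83794790-83795089, minus strand, with 3.
Dynlrb2: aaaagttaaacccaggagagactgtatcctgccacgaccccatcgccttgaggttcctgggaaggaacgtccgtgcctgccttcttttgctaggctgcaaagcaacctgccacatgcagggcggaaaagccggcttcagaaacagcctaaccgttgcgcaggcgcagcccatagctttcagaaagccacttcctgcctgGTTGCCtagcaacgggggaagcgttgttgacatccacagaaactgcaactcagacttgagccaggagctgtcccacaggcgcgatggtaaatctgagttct
Fam183b: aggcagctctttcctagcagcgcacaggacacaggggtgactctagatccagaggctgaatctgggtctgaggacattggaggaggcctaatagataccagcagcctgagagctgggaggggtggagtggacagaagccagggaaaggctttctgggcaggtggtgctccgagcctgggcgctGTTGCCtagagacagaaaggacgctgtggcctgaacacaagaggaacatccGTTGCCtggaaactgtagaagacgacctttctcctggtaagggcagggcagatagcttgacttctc
Cfap161: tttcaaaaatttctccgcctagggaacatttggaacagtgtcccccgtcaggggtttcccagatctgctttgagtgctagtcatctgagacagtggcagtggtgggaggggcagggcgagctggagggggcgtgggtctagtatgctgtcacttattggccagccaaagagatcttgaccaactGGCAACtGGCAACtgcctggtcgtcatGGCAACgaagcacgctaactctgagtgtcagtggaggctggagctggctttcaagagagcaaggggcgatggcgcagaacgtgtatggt

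On either strand GTTGCC occurred in 24.5% of the 437 promoters of genes called lower, in 11.8% of the 804 promoters of genes called higher and in 12.2% of all 15128 promoters matched. Of the 15 largest falls 13 had a promoter, and 9 of these held it (69.2%). Among the 14 ciliated markers with a promoter 6 held it (42.9%), 2 of them among the 9 called ones. This motif and that of E2F below were added after the values were seen, and a match is a description of the letters, not of a bound site.

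**Figure D3:**
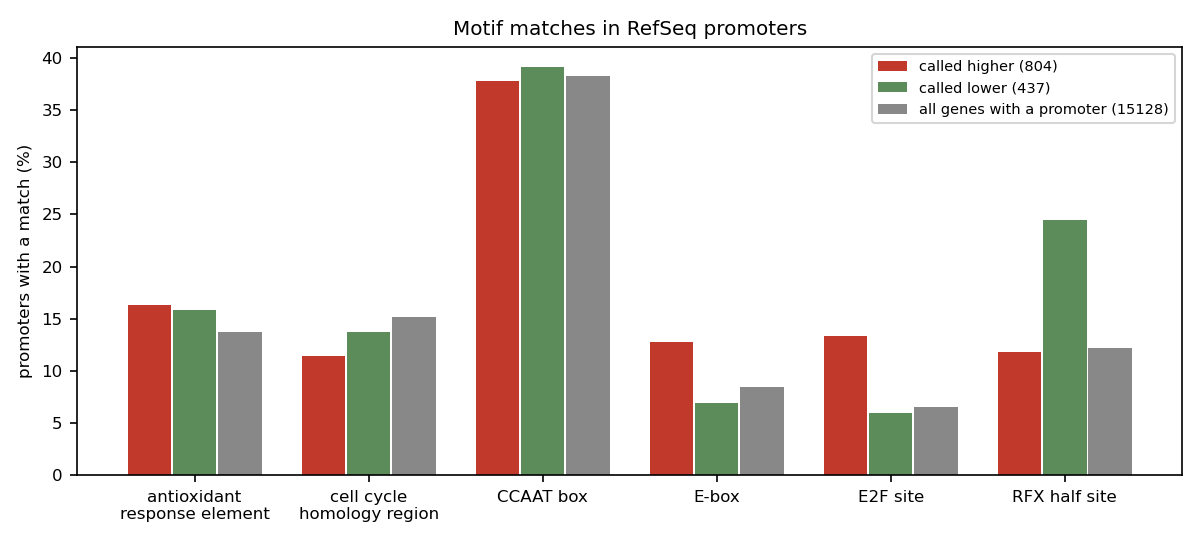
Share of RefSeq promoters (300 bases, in %) with at least 1 match on either strand to 6 motifs, for genes called higher (red, 804), called lower (green, 437) and all genes with a promoter (grey, 15128). The RFX motif stands out among falls (24.5% against 12.2% of all) and the E2F motif among rises (13.3% against 6.48%), while the CCAAT box was at 37.8%, 39.1% and 38.3%.

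Several genes of club cells and of aldehyde and drug metabolism fell. Aox3, an aldehyde oxidase that metabolises drugs and aldehydes, had the smallest p of all genes tested. It read 8.41, 8.19, 8.37 and 8.43 in the O3 arrays, against 10.11, 10.02, 10.18 and 10.04 in the air arrays, with each group within 0.24 and a gap of 1.59 between the groups. The fall was -1.74 ± 0.08 (SE), or 3.34-fold, with an adjusted p of 1.08e-04. Scgb3a2, a secretoglobin of club cells, read 9.13, 8.95, 9.03 and 8.56 in the O3 arrays, against 10.14, 10.43, 10.06 and 10.28 in the air arrays. The O3 arrays were at most 9.13, with replicate 4 lowest, and the air arrays at least 10.06 (difference -1.31 ± 0.14, adjusted p 0.00154). Scgb1a1 itself, near the top of the signal range, overlapped between the groups and was not called (difference -0.29 ± 0.12, adjusted p 0.166).

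On the list of club cell markers 7 of 17 genes were called lower and 1 higher, against 2.93% and 4.9% of all genes. The median was -0.39. Cldn10, a claudin of club cells, fell (difference -1.41 ± 0.21), as did Cyp2f2, a cytochrome P450 that activates naphthalene in club cells (-0.58 ± 0.12). Cbr2, a carbonyl reductase, averaged 11.10 ± 0.21 in the O3 arrays and 11.67 ± 0.11 in the air arrays (difference -0.57 ± 0.11). Both of the last calls rested on most arrays being present: Cyp2f2 (adjusted p 0.021, 0.00784 to 0.1 over the alternatives) was lost without air replicate 1, air replicate 2, air replicate 3 or air replicate 4, and Cbr2 (adjusted p 0.0199, 0.00742 to 0.0672) without air replicate 2, air replicate 3 or air replicate 4. The list's count of falls was 4 without air replicate 2, air replicate 3 or air replicate 4.

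Aldehyde dehydrogenases and carboxylesterases, which clear aldehydes and esters, gave 5 falls and 1 rise among 22 genes, against 2.93% and 4.9% of all genes. Aldh1a1, a retinal dehydrogenase abundant in club cells, read 10.96, 10.93, 10.98 and 10.97 in the O3 arrays, against 11.33, 11.50, 11.50 and 11.52 in the air arrays. The O3 arrays agreed within 0.05, and air replicate 1 was the lowest of an otherwise tight air group (difference -0.50 ± 0.07, adjusted p 0.00507). Aldh1a7 fell (difference -0.80 ± 0.13), as did the carboxylesterases Ces1d (-0.82 ± 0.09), Ces1e (-1.38 ± 0.15) and Ces1f (-1.70 ± 0.20). All 5 falls were called whichever array was left out, and 4 of them in the fit of 12 arrays. These families hold close copies (Aldh1a1 and Aldh1a7, the Ces1 cluster), and signal shared between copies was not tested. Aldh1a3, which also makes retinoic acid, moved the other way, to 5.46 ± 0.68 in the O3 arrays and 4.14 ± 0.13 in the air arrays (difference 1.32 ± 0.29), and its adjusted p of 0.0288 (0.0108 to 0.135 over the alternatives) was lost without O3 replicate 3, air replicate 1, air replicate 2, air replicate 3 or air replicate 4.

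Among 20 cytochrome P450 and flavin monooxygenase genes 6 were lower and none higher, against 2.93% and 4.9% of all genes. The count of falls was 3 without air replicate 1 or air replicate 4, 2 without the 2 arrays high in Ucp1 and 1 in the fit of 12 arrays. Cyp39a1, an oxysterol hydroxylase, read 8.35, 8.23, 8.24 and 8.14 in the O3 arrays, against 9.08, 9.08, 9.05 and 9.20 in the air arrays, with no overlap and a spread of at most 0.21 within a group (difference -0.86 ± 0.07, adjusted p 0.001). Outside that list, the fatty acid hydroxylases Cyp4f15 and Cyp4a12b differed by -1.60 ± 0.10 and -2.41 ± 0.37, and Cyp4a12b, which has a near-identical copy, averaged 4.01 ± 0.30 in the O3 arrays and 6.43 ± 0.84 in the air arrays.

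Many genes of DNA replication rose. Of 37 measured genes 20 were called higher, against 4.9% of all genes, none was called lower, and 36 had a positive difference (median 0.71). All 6 subunits of the MCM helicase, which opens the DNA at origins, were called: Mcm2 (1.02), Mcm3 (1.10), Mcm4 (0.74), Mcm5 (0.67), Mcm6 (0.96) and Mcm7 (0.74), of which Mcm4 to Mcm7 complete the complex and were named after their values were seen. Mcm3 read 6.63, 6.84, 6.72 and 6.79 in the O3 arrays, against 5.70, 5.49, 5.53 and 5.86 in the air arrays. The O3 arrays lay within 0.21 of each other, and the gap to the highest air array was 0.77 (difference 1.10 ± 0.10, adjusted p 0.001). Gins1, a subunit of the same replicative helicase, rose by 1.35 ± 0.13, and the origin recognition subunit Orc6 by 0.84 ± 0.10. Chaf1a, a histone chaperone that packs new DNA, rose by 0.67 ± 0.09.

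Cdc6, which loads the MCM complex onto origins, read 5.11, 5.64, 5.46 and 5.66 in the O3 arrays, against 4.59, 4.69, 4.59 and 4.74 in the air arrays. O3 replicate 1 was the lowest of its group, and the air arrays stayed below 4.8 (difference 0.82 ± 0.12, adjusted p 0.00697). The list's mean signal was 6.25, 6.60, 6.47 and 6.61 in the O3 arrays, against 6.03, 5.69, 5.80 and 5.82 in the air arrays, so that air replicate 1 came closest to the O3 group. The count of calls was 11 without O3 replicate 3, 13 without air replicate 2, 12 without air replicate 4, 10 without the 2 arrays high in Ucp1 and 5 in the fit of 12 arrays.

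The promoters of Cdc6 and Mcm3 are printed since they hold GCGGGAA, a form of the E2F site through which S phase genes are switched on. Cdc6 lies at chr11:98907901-98908200, plus strand and Mcm3 at chr1:20820263-20820562, minus strand, each with 1 match, in capitals, in the RefSeq window of 300 bases.
Cdc6: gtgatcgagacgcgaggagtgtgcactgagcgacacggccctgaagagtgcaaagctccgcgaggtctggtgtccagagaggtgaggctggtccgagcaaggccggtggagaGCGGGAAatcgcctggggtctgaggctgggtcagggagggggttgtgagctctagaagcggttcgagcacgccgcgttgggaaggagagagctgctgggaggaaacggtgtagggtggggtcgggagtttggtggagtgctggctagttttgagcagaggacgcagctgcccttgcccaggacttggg
Mcm3: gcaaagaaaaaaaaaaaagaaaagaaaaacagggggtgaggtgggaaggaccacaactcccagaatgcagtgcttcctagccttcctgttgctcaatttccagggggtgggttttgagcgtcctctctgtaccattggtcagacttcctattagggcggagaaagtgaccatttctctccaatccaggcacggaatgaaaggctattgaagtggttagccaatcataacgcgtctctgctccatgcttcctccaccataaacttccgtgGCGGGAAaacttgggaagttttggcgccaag

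GCGGGAA stood in 13.3% of promoters of genes called higher, 5.95% of those called lower and 6.48% of all promoters. Of the 28 replication genes with a promoter 13 held it (46.4%), 7 of them among the 13 called. None of the 28 promoters of mitosis genes did, whereas 22 of these (78.6%) held TTTGAA, the cell cycle homology region, against 15.2% of all promoters.

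Few mitosis genes were called. Of 34 genes 2 were called higher, 5.88% against 4.9% of all genes, although 32 of the 34 differences were positive and the median was 0.40. The list averaged 5.08, 5.65, 5.31 and 5.96 in the O3 arrays, against 5.62, 4.90, 5.03 and 4.92 in the air arrays. O3 replicate 4 was highest, and O3 replicates 1 and 3 were lower than air replicate 1. The called members were Anln, the cytokinesis scaffold anillin (1.05 ± 0.22, adjusted p 0.0242, 0.0136 to 0.0976 over the alternatives), and Cdc20, an activator of the anaphase-promoting complex (0.40 ± 0.10, adjusted p 0.0382, 0.0252 to 0.183). The first call was lost without O3 replicate 3, O3 replicate 4, air replicate 2, air replicate 3 or air replicate 4, and the second without O3 replicate 1, O3 replicate 2, O3 replicate 3, O3 replicate 4, air replicate 2, air replicate 3 or air replicate 4.

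Ribosome biogenesis, the making of ribosomes in the nucleolus, had the largest share of called genes among the 66 lists other than that of ciliated cells. Of 39 genes 23 were higher, against 4.9% of all genes, and none lower (median 0.61). In 30 all O3 arrays lay above all air arrays, against 8.81% of all genes. Nop58, a core protein of the box C/D particles that methylate ribosomal RNA, read 9.10, 9.07, 9.18 and 9.14 in the O3 arrays, against 8.23, 7.83, 8.05 and 8.44 in the air arrays. Its O3 arrays were almost equal and its air arrays spread over 0.61 below them (difference 0.98 ± 0.12, adjusted p 0.0034). Gnl3, the nucleolar GTPase nucleostemin, averaged 8.50 ± 0.11 in the O3 arrays and 7.52 ± 0.22 in the air arrays (difference 0.97 ± 0.12). Polr1a, the large subunit of RNA polymerase I, rose by 0.73 ± 0.10, Utp15, which processes the small subunit's RNA, by 0.85 ± 0.10, Wdr12 of the large subunit's assembly by 0.75 ± 0.11, and Nhp2 of the pseudouridine-forming particles by 1.09 ± 0.15.

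The list averaged 7.52, 7.31, 7.49 and 7.41 in the O3 arrays, against 6.88, 6.70, 6.87 and 6.90 in the air arrays, with a clear gap. The count was 18 to 25 with 1 array left out, and 8 in the fit of 12 arrays. Of 34 proteins of the finished cytosolic ribosome 1 was called (2.94%, against 7.83% of all genes). The median was -0.03, and the list averaged 10.15 to 10.47 in the O3 arrays and 10.28 to 10.39 in the air arrays. The called gene was Rps19 (0.38 ± 0.09, adjusted p 0.044, 0.0158 to 0.218 over the alternatives), and its call was lost without O3 replicate 1, O3 replicate 2, O3 replicate 3, O3 replicate 4, air replicate 1, air replicate 2 or air replicate 3.

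Myc, the transcription factor that drives nucleolar and growth genes through E-boxes, read 8.95, 8.34, 9.17 and 9.11 in the O3 arrays, against 6.70, 7.03, 7.09 and 6.97 in the air arrays. O3 replicate 2 was the lowest O3 array and still 1.25 above the highest air array (difference 1.95 ± 0.18, 3.85-fold, adjusted p 0.00114). The polyamine enzymes spermidine synthase, Srm, and ornithine decarboxylase, Odc1, both known Myc targets, rose by 1.30 ± 0.17 and 0.37 ± 0.08. The second was small, with an adjusted p of 0.0222 (0.011 to 0.19 over the alternatives), and was lost without O3 replicate 3, air replicate 1, air replicate 2, air replicate 3 or air replicate 4. Mybbp1a, a nucleolar protein that binds MYB, read 7.50, 6.48, 7.27 and 7.07 in the O3 arrays, against 5.92, 5.74, 5.91 and 5.90 in the air arrays. Here too O3 replicate 2 was lowest and the air arrays lay within 0.18 (difference 1.21 ± 0.19).

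The promoter of Mybbp1a, at chr11:72441077-72441376, plus strand, is shown for the E-box CACGTG, in capitals, at its 3′ end. Mybbp1a was singled out for this after its values were seen.
Mybbp1a: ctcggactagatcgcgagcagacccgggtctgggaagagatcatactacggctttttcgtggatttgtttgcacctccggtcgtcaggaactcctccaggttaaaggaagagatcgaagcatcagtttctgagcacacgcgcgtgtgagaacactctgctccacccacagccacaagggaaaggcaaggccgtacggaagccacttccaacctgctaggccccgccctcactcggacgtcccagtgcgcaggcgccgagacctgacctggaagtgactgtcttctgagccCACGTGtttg

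CACGTG stood in 12.8% of the promoters of genes called higher, 6.86% of those called lower and 8.41% of all. Of 32 ribosome biogenesis genes with a promoter 8 held it (25%), 6 of them among the 19 called.

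Several genes of the proteasome and of chaperones rose. Of 31 proteasome subunits 14 were called higher, against 4.9% of all genes, and none lower (median 0.38). The list mean was 9.34 to 9.58 in the O3 arrays and 8.95 to 9.12 in the air arrays. Psmd1, a scaffold of the regulatory particle that recognises ubiquitin chains, read 10.21, 10.07, 10.24 and 10.26 in the O3 arrays, against 9.67, 9.57, 9.66 and 9.79 in the air arrays. The O3 arrays were all above 10 and the air arrays all below 9.8 (difference 0.52 ± 0.08, adjusted p 0.00649). Psmd3, of the same particle, rose by 0.90 ± 0.13, and the ATPase subunit Psmc2 by 0.41 ± 0.07. The count was 7 without O3 replicate 1, 3 without O3 replicate 3, 6 without O3 replicate 4, 5, 3, 8 and 4 without air replicates 1 to 4 in turn, 2 without the 2 arrays high in Ucp1 and 1 in the fit of 12 arrays.

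Chaperone genes gave 6 rises among 25, against 4.9% of all genes. That count was 10 without O3 replicate 2, 3 without air replicate 4 and 2 in the fit of 12 arrays. The rises included 4 subunits of the chaperonin CCT, which folds actin and tubulin. Cct6a read 8.91, 8.84, 8.88 and 8.88 in the O3 arrays, against 8.44, 8.35, 8.21 and 8.33 in the air arrays. Its O3 arrays lay within 0.07, 0.40 above the highest air array (difference 0.55 ± 0.07, adjusted p 0.00357). Cct2 and Cct5 rose by 0.56 ± 0.08 and 0.45 ± 0.07. Of 22 genes of the unfolded protein response in the endoplasmic reticulum 1 was called (4.55%, against 7.83% of all genes). It was Xbp1, the factor spliced in that response (0.37 ± 0.09, adjusted p 0.0453, 0.00939 to 0.454 over the alternatives). Its call was lost without O3 replicate 1, O3 replicate 3, O3 replicate 4, air replicate 1, air replicate 2, air replicate 3 or air replicate 4.

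**Figure D4:**
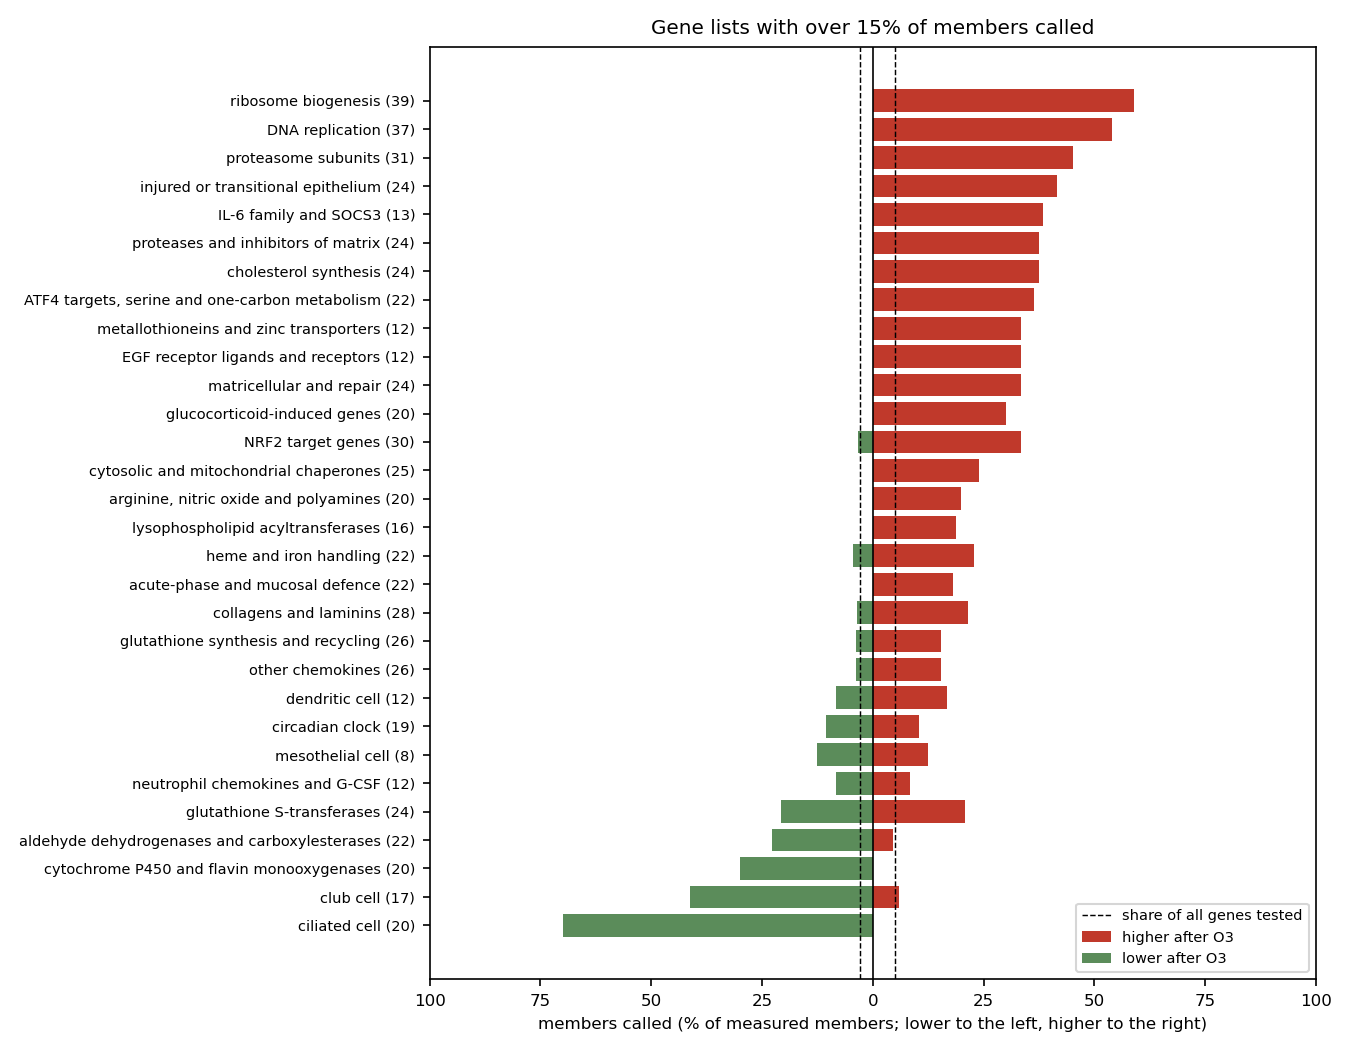
Share of measured members called higher (red, right) and lower (green, left) in the O3 arrays, in %, for the lists with over 15% called; the number measured stands in parentheses and the dashed lines mark the shares of all genes tested, 4.9% and 2.93%. Ribosome biogenesis and DNA replication lead the rises, and the ciliated and club cell lists lead the falls.

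Several antioxidant genes rose and the catalase gene fell. Of 30 NRF2 targets 10 were higher and 1 lower (median 0.52), against 4.9% and 2.93% of all genes. Hmox1, heme oxygenase 1, which breaks down heme, read 9.17, 8.34, 9.03 and 9.36 in the O3 arrays, against 7.84, 7.68, 8.07 and 7.44 in the air arrays. O3 replicate 2 was the lowest of the O3 arrays, 0.27 above the highest air array (difference 1.22 ± 0.22, adjusted p 0.0138). Txnrd1, thioredoxin reductase, rose by 0.83 ± 0.15, and Srxn1, which repairs oxidised peroxiredoxins, by 1.13 ± 0.22. Slc7a11, which imports cystine for glutathione, read 7.81, 6.17, 7.96 and 8.12 in the O3 arrays, against 5.10, 4.92, 5.71 and 5.50 in the air arrays. Again O3 replicate 2 stood low, 1.64 under the next O3 array, and near the highest air array (difference 2.21 ± 0.41, 4.63-fold). The call of Srxn1 (adjusted p 0.0177, 0.0041 to 0.111 over the alternatives) was lost without O3 replicate 3, air replicate 1 or air replicate 2, and that of Slc7a11 (adjusted p 0.015, 0.00097 to 0.166) without O3 replicate 3 or air replicate 2. Cat, the catalase of peroxisomes, fell: it read 9.59, 9.56, 9.54 and 9.94 in the O3 arrays, against 10.30, 10.27, 10.46 and 10.19 in the air arrays, with O3 replicate 4 the least low (difference -0.65 ± 0.11, adjusted p 0.0101).

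The list's mean was 8.90, 8.37, 8.80 and 8.77 in the O3 arrays, against 8.04, 7.94, 8.39 and 8.09 in the air arrays. O3 replicate 2 was lowest of its group and lay just below air replicate 3, the highest of the air group, so that the ranges overlapped. The count of rises was 5 without O3 replicate 3, 6 without air replicate 1, 5 without air replicate 2. In the fit of 12 arrays limma called none, with 13 of the 30 higher at an unadjusted p under 0.05. The linear model without moderation, fitted to the 8 arrays, called 4 in either direction. The antioxidant response element TGACNNNGC stood in 7 of the 23 promoters of this list (30.4%), and in 16.3%, 15.8% and 13.7% of the promoters of genes called higher, called lower and of all genes.

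Glutathione S-transferases, which attach glutathione to oxidised lipids and drugs, went both ways. Of 24 genes 5 were higher and 5 lower, against 4.9% and 2.93% of all genes. Mgst3, of the microsomal branch, averaged 8.64 ± 0.41 in the O3 arrays and 7.29 ± 0.43 in the air arrays (difference 1.36 ± 0.25, adjusted p 0.0153), while Gstk1, of mitochondria and peroxisomes, averaged 9.02 ± 0.18 in the O3 arrays and 9.81 ± 0.25 in the air arrays (difference -0.79 ± 0.14, adjusted p 0.0127). The 5 falls numbered 5 without O3 replicate 2 but 1 to 3 without any other array, and the 5 rises 2 without O3 replicate 3 and 3 without air replicate 1 or air replicate 4. Without the 2 arrays high in Ucp1 there were 5 rises and 1 fall. In the fit of 12 arrays limma called 0 (5 higher and 5 lower at an unadjusted p under 0.05), and the linear model without moderation called 2. Without O3 replicate 3 the rise of Mgst3 was not called (adjusted p 0.00575 to 0.109 over the alternatives).

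Of 12 metallothionein and zinc transporter genes 4 were higher, against 4.9% of all genes, and none lower. The count was 2 without O3 replicate 1, O3 replicate 3, air replicate 1, air replicate 3 or air replicate 4. In the fit of 12 arrays limma called 0 of these genes (6 higher and 0 lower at an unadjusted p under 0.05). The linear model without moderation, fitted to the 8 arrays, called 2. Mt2, a metallothionein that binds zinc and scavenges oxidants, read 11.19, 10.53, 11.29 and 10.64 in the O3 arrays, against 8.82, 8.48, 9.20 and 7.76 in the air arrays. All O3 arrays stood above 10.5 and the air arrays at most at 9.20 (difference 2.35 ± 0.30, 5.1-fold, adjusted p 0.00367). Mt1, its neighbour and close copy, averaged 9.28 ± 0.45 in the O3 arrays and 8.18 ± 0.36 in the air arrays (difference 1.11 ± 0.24, adjusted p 0.0296, 0.0106 to 0.233 over the alternatives), a call that was lost without O3 replicate 1, O3 replicate 3, air replicate 1, air replicate 3 or air replicate 4. Slc39a14, an importer of zinc and iron, rose by 1.47 ± 0.18. Lcn2, lipocalin 2, which binds the iron carriers of bacteria, read 10.86, 10.65, 10.87 and 11.14 in the O3 arrays, against 9.90, 8.46, 9.42 and 8.89 in the air arrays, with air replicate 1 the highest air array (difference 1.71 ± 0.28, adjusted p 0.00893). Ltf, lactoferrin, averaged 8.12 ± 0.36 in the O3 arrays and 6.34 ± 0.82 in the air arrays (difference 1.78 ± 0.37, adjusted p 0.0242, 0.016 to 0.129) and lost its call without O3 replicate 1, O3 replicate 3 or air replicate 4. Lcn2 and Ltf are also made by neutrophils, whose 18 marker genes averaged 6.54, 6.57, 6.30 and 6.09 in the O3 arrays, against 7.86, 5.59, 6.34 and 7.43 in the air arrays.

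Several genes of amino acid supply for protein and nucleotide synthesis rose. The list held 22 targets of ATF4, the factor of the amino acid and mitochondrial stress response, and enzymes of serine and folate metabolism. Of these 8 were higher, against 4.9% of all genes, and none lower (median 0.43). Mthfd2, a mitochondrial folate enzyme, read 7.40, 7.58, 7.86 and 8.11 in the O3 arrays, against 6.45, 5.86, 6.34 and 6.40 in the air arrays. Signals were 7.4 or more in the O3 arrays and below 6.5 in the air arrays (difference 1.48 ± 0.18, 2.78-fold, adjusted p 0.00293). Its partner Mthfd1l rose by 1.10 ± 0.18, the serine synthesis enzyme Psat1 by 1.72 ± 0.29, the leucine transporter Slc7a5 by 1.51 ± 0.24, and the glycyl-tRNA synthetase Gars by 0.60 ± 0.09. The count was 5 without O3 replicate 3 or air replicate 2, and 2 in the fit of 12 arrays.

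Some genes of the IL-6 family and of its signalling rose. With Il6, 5 of the 13 genes on the list were called higher, against 4.9% of all genes, and none lower. The list's median was 0.02, and 2 of its genes were called in the fit of 12 arrays. Lif, leukaemia inhibitory factor, read 6.65, 5.54, 6.66 and 5.93 in the O3 arrays, against 4.02, 4.64, 4.14 and 4.02 in the air arrays. The highest air array, replicate 2, was 0.90 below the lowest O3 array, also replicate 2 (difference 1.99 ± 0.27, 3.96-fold, adjusted p 0.00434). Osmr, the receptor subunit for oncostatin M, rose by 0.76 ± 0.12. Stat3, the transcription factor that these receptors activate, read 9.86, 9.52, 9.87 and 9.82 in the O3 arrays, against 9.26, 8.92, 9.18 and 9.08 in the air arrays, with O3 replicate 2 the lowest of its group (difference 0.66 ± 0.11, adjusted p 0.00975). Socs3, the feedback inhibitor of the pathway, averaged 6.22 ± 0.27 in the O3 arrays and 5.48 ± 0.22 in the air arrays (difference 0.73 ± 0.16, adjusted p 0.0263, 0.0096 to 0.584 over the alternatives), and its call was lost without O3 replicate 1, O3 replicate 3, air replicate 1, air replicate 3 or air replicate 4. Il24, a cytokine of the IL-10 family that also signals through STAT3, rose by 2.04 ± 0.19 (4.12-fold).

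Chemokine genes were mixed. Of 12 genes for neutrophil chemokines and G-CSF, Cxcl5 was higher and Ppbp lower (16.7% called, against 7.83% of all genes). Cxcl5, an epithelial ligand of the neutrophil receptor CXCR2, read 5.97, 5.93, 5.46 and 5.41 in the O3 arrays, against 4.31, 3.72, 3.65 and 4.25 in the air arrays. Each O3 array was above 5.4 and each air array at most 4.31 (difference 1.71 ± 0.20, 3.28-fold, adjusted p 0.00246), and it was called in every alternative. Ppbp, the platelet chemokine, averaged 9.86 ± 0.58 in the O3 arrays and 10.85 ± 0.14 in the air arrays (difference -0.99 ± 0.25, adjusted p 0.0466, 0.0147 to 0.142), a call lost without O3 replicate 1, O3 replicate 3, air replicate 1, air replicate 2, air replicate 3 or air replicate 4. Of 26 other chemokines 4 were higher and 1 lower, against 4.9% and 2.93% of all genes. Cxcl14 rose by 1.07 ± 0.15 and the eosinophil attractant Ccl11 by 1.08 ± 0.21, Ccl22, which attracts T cells through CCR4, averaged 5.74 ± 0.50 in the O3 arrays and 4.66 ± 0.17 in the air arrays, and Ccl6 averaged 9.04 ± 0.25 in the O3 arrays and 9.77 ± 0.19 in the air arrays. The call of Ccl11 was lost without O3 replicate 3 (adjusted p 0.0179, 0.00871 to 0.218 over the alternatives), that of Ccl22 without O3 replicate 4, air replicate 1, air replicate 3 or air replicate 4 (0.0238, 0.00976 to 0.132), and that of Ccl6 without O3 replicate 3, air replicate 1 or air replicate 2 (0.0179, 0.00752 to 0.271). The count of rises was 2 without O3 replicate 3, O3 replicate 4, air replicate 1 or air replicate 4 and 2 without the 2 arrays high in Ucp1. In the fit of 12 arrays limma called 0 of the 26 (9 higher and 2 lower at an unadjusted p under 0.05). The linear model without moderation, fitted to the 8 arrays, called 1.

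In the IL-1 family and the IL-17 axis the share called was 6.25% each, near the 7.83% of all genes. Of 16 genes of the IL-1 family 1 was higher, the receptor Il1r1 (0.60 ± 0.11, adjusted p 0.0177, 0.00618 to 0.0648 over the alternatives, lost without O3 replicate 3 or air replicate 2), and of 16 genes of the IL-17 axis 1 was lower, Il17rd (-0.52 ± 0.11, adjusted p 0.0263, 0.0202 to 0.465, lost without O3 replicate 1, O3 replicate 3, O3 replicate 4, air replicate 1, air replicate 2 or air replicate 4). The neutrophil gene S100a8, a subunit of calprotectin, read 7.13 to 8.76 in the O3 arrays, against 10.30, 7.36, 8.16 and 10.40 in the air arrays, and the surface marker Ly6g read 4.99, 4.72, 4.61 and 3.91 in the O3 arrays, against 7.83, 3.65, 4.14 and 7.47 in the air arrays. In both genes air replicates 1 and 4 were above every O3 array, while air replicate 3 lay within the O3 range and air replicate 2 within it for S100a8 and below it for Ly6g. Neither was called (S100a8 difference -1.26 ± 0.70, adjusted p 0.317, and Ly6g difference -1.21 ± 0.92, adjusted p 0.473). Orm1, an acute-phase glycoprotein, rose by 1.49 ± 0.31 (adjusted p 0.0236, 0.00608 to 0.148), a call lost without O3 replicate 1, O3 replicate 4, air replicate 1, air replicate 2 or air replicate 4.

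Growth factors and genes of epithelial repair were among the rises. Ereg, the EGF receptor ligand epiregulin, read 6.74, 6.37, 6.96 and 7.07 in the O3 arrays, against 4.04, 3.74, 5.29 and 4.15 in the air arrays. Air replicate 3 was the highest air array, 1.08 below the lowest O3 array (difference 2.48 ± 0.31, 5.59-fold, adjusted p 0.0034). On the list of EGF receptor ligands and receptors 4 of 12 were higher, against 4.9% of all genes, and none lower. Hbegf rose by 1.05 ± 0.18 (adjusted p 0.0121), and Nrg1, neuregulin 1, by 0.77 ± 0.17 (adjusted p 0.0293, 0.00218 to 0.109 over the alternatives), whose call was lost without O3 replicate 1, O3 replicate 3, O3 replicate 4, air replicate 1, air replicate 2, air replicate 3 or air replicate 4.

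Of 24 genes that mark injured or transitional epithelium 10 were higher, against 4.9% of all genes, and none lower, with a median of 0.73. Krt7, a keratin of simple epithelia, read 10.42, 10.16, 10.16 and 10.04 in the O3 arrays, against 9.28, 8.96, 9.03 and 9.27 in the air arrays. All O3 arrays were above 10 and all air arrays below 9.3 (difference 1.06 ± 0.11, adjusted p 0.00158). Clu, the secreted chaperone clusterin, read 9.57, 9.23, 9.45 and 9.52 in the O3 arrays, against 8.44, 8.43, 8.50 and 8.07 in the air arrays, with air replicate 4 the lowest (difference 1.08 ± 0.12, adjusted p 0.00179). The keratins Krt18 and Krt19 rose by 1.07 ± 0.18 and 1.45 ± 0.26. The list's mean was 8.02 to 8.46 in the O3 arrays and 7.38 to 7.89 in the air arrays, air replicate 3 being the highest of its group. The count was 6 without O3 replicate 3 and 3 in the fit of 12 arrays.

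**Figure D5:**
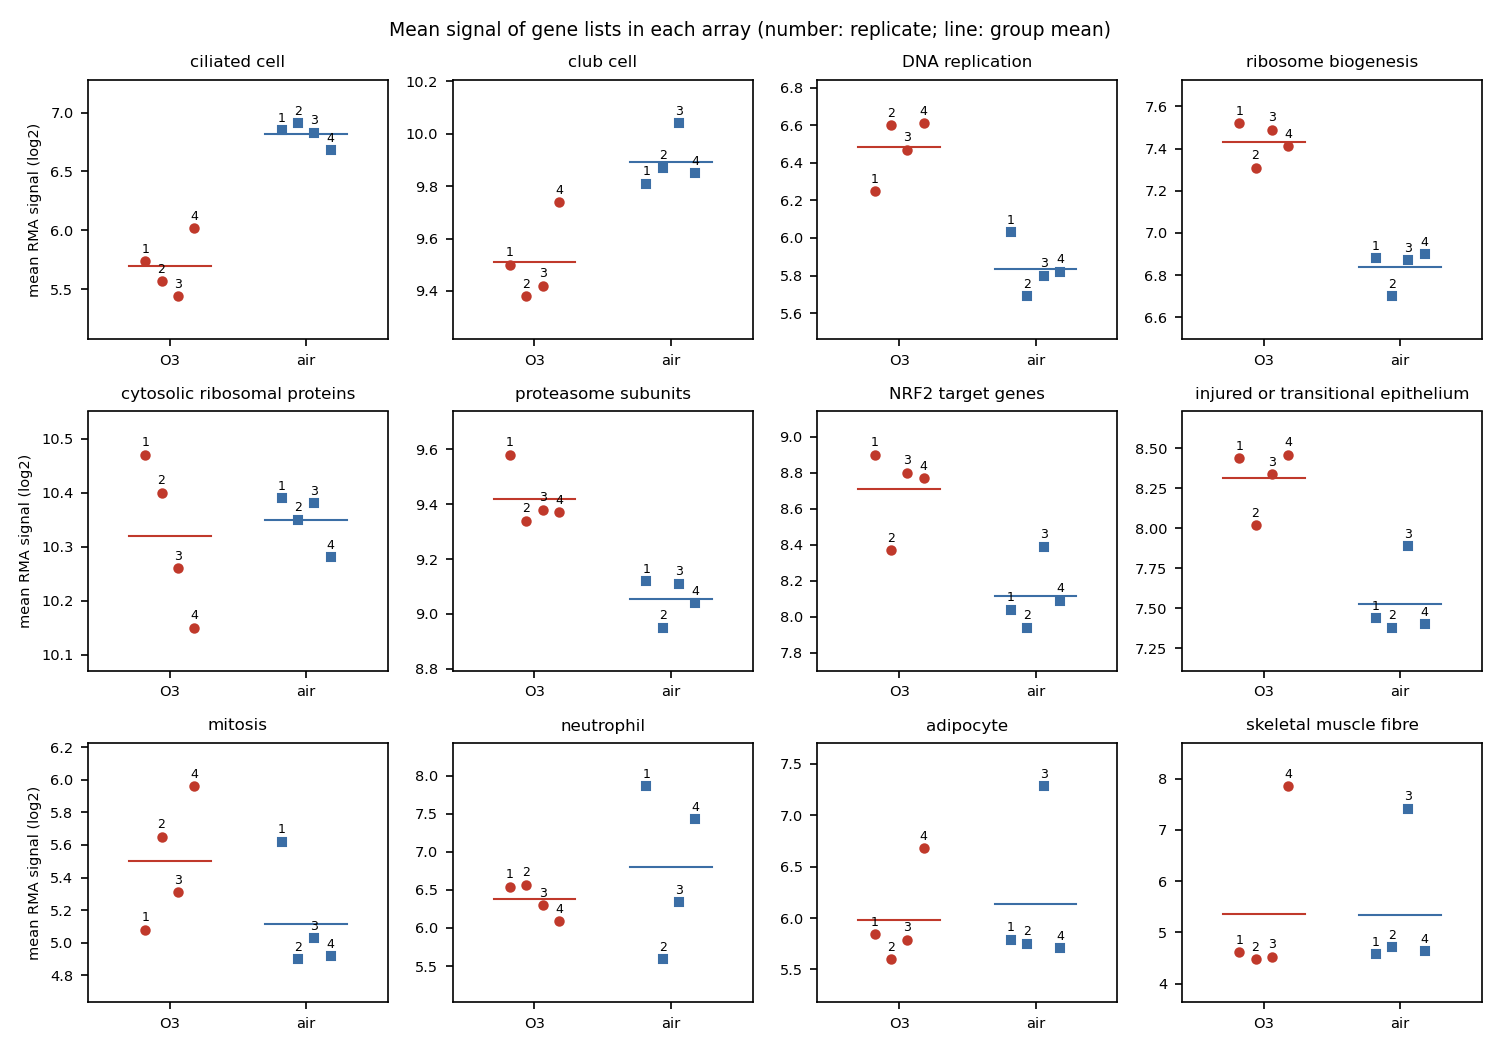
Mean RMA signal (log2) of the measured members of 12 gene lists in each array; circles are O3 arrays, squares air arrays, numbers the replicates and lines the group means, and each panel has its own vertical range. The groups separate for the ciliated, club cell, replication, ribosome biogenesis and proteasome lists, while the adipocyte and muscle lists single out O3 replicate 4 and air replicate 3 and the neutrophil list is highest in air replicates 1 and 4.

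Matrix proteases and their inhibitors gave 9 rises among 24 genes, against 4.9% of all genes, and no fall. There were 5 rises in the fit of 12 arrays. Mmp3, stromelysin 1, read 7.87, 7.60, 7.75 and 6.99 in the O3 arrays, against 6.63, 5.97, 6.02 and 6.35 in the air arrays. O3 replicate 4 was lowest of its group, 0.36 above air replicate 1 (difference 1.31 ± 0.21, adjusted p 0.00912). Mmp14, a membrane-bound metalloproteinase, rose by 1.13 ± 0.19, Mmp19 by 1.26 ± 0.19, the aggrecanase Adamts4 by 0.95 ± 0.16, and Plau, the urokinase that activates plasmin, by 1.24 ± 0.18. Serpina3n, an inhibitor of serine proteases, averaged 11.05 ± 0.19 in the O3 arrays and 9.57 ± 0.68 in the air arrays (difference 1.48 ± 0.30, adjusted p 0.0209, 0.00967 to 0.0907 over the alternatives), and its call was lost without O3 replicate 1, O3 replicate 3 or air replicate 4.

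Of 24 matricellular and repair genes 8 were higher, against 4.9% of all genes, and none lower (median 0.51). In the fit of 12 arrays 2 were higher. Thbs1, thrombospondin 1, which activates latent TGF-beta, read 10.15, 9.57, 10.38 and 9.62 in the O3 arrays, against 8.30, 8.30, 8.54 and 8.22 in the air arrays. The O3 arrays were all above 9.5 and the air arrays at most 8.54 (difference 1.59 ± 0.18, 3.01-fold, adjusted p 0.00246). Tgfb2 rose by 0.77 ± 0.10, F3, the tissue factor that starts clotting, by 1.15 ± 0.15, and Inhba, the subunit of activin A, by 0.82 ± 0.15. Collagens and laminins gave 6 rises and 1 fall among 28, against 4.9% and 2.93% of all genes. The rises numbered 2 without O3 replicate 1, O3 replicate 3, air replicate 1, air replicate 2 or air replicate 4 and 3 without air replicate 3. In the fit of 12 arrays limma called 0 (4 higher and 1 lower at an unadjusted p under 0.05). The linear model without moderation, fitted to the 8 arrays, called 1. Col12a1, a collagen that decorates fibrils, was called whichever of the 8 arrays was left out, with a mean of 7.37 ± 0.16 in the O3 arrays and 6.55 ± 0.16 in the air arrays (difference 0.81 ± 0.11).

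Some genes of other pathways rose as well. Of 20 glucocorticoid-induced genes 6 were higher, against 4.9% of all genes, and none lower. That count was 2 to 8 with 1 array left out and 1 in the fit of 12 arrays. Of 20 p53 targets 3 were higher, against 4.9% of all genes, and none lower. The rises of p53 targets numbered 0 to 4 with 1 array left out and 0 in the fit of 12 arrays. Ptges, the inducible synthase of prostaglandin E2, averaged 7.19 ± 0.22 in the O3 arrays and 5.95 ± 0.16 in the air arrays (difference 1.24 ± 0.12, adjusted p 0.00146). Egr2, an early growth response factor, rose by 1.36 ± 0.22, and Nfil3, a repressor of the circadian D-box, by 1.18 ± 0.20. Slc26a4, the chloride and bicarbonate exchanger pendrin of airway epithelium, rose by 1.19 ± 0.18, and Cgn, the tight junction protein cingulin, by 1.03 ± 0.13. Of 20 genes of ion and water transport 2 were higher and 1 lower (median 0.03). Among 22 tight junction genes 2 were higher and 1 lower (median -0.01). Of 19 genes of prostaglandin and leukotriene synthesis 2 were higher, and of 20 AP-1, EGR and Myc genes 3, with none lower in either list. All genes gave 4.9% higher and 2.93% lower. In the fit of 12 arrays the rises of these lists numbered 1, 1, 0 and 2 in turn. Fkbp5, a target of the glucocorticoid receptor, rose by 1.04 ± 0.23 (adjusted p 0.0273, 0.00938 to 0.142 over the alternatives), and Cdkn1a, the p53 target p21, by 0.90 ± 0.21 (adjusted p 0.0343, 0.0134 to 0.34). Both calls were lost without some arrays, Fkbp5 without O3 replicate 1, O3 replicate 3, air replicate 2, air replicate 3 or air replicate 4 and Cdkn1a without O3 replicate 3, O3 replicate 4, air replicate 1, air replicate 2, air replicate 3 or air replicate 4.

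Several genes of cholesterol synthesis rose. Of 24 genes 9 were higher, against 4.9% of all genes, and none lower (median 0.46). The list averaged 7.17 to 7.58 in the O3 arrays and 6.60 to 6.97 in the air arrays. Cyp51, lanosterol demethylase, read 8.30, 8.16, 7.89 and 8.42 in the O3 arrays, against 7.16, 7.14, 7.44 and 7.44 in the air arrays. O3 replicate 3 was the lowest O3 array, 0.45 above the highest air arrays (difference 0.90 ± 0.13, adjusted p 0.00583). Hsd17b7, of a later step, rose by 1.45 ± 0.24, Sqle, squalene epoxidase, by 0.79 ± 0.14, and Lss, lanosterol synthase, by 1.44 ± 0.30 (adjusted p 0.0249, 0.00437 to 0.131 over the alternatives, lost without O3 replicate 1, O3 replicate 3, air replicate 1, air replicate 2 or air replicate 4). The count was 5 without air replicate 1 or air replicate 2, and 1 in the fit of 12 arrays.

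Other metabolic lists described here held few calls, against 7.83% of all genes. The shares called were 11.5% in glycolysis and the pentose phosphate path and 8.33% in branched-chain amino acid breakdown. None of 20 genes of fatty acid synthesis, 25 of fatty acid oxidation or 34 of oxidative phosphorylation was called, by limma or by the linear model without moderation, and the medians were 0.09, 0.03 and 0.07. At an unadjusted p under 0.05 limma gave 5 higher and 1 lower in fatty acid synthesis, 0 and 2 in fatty acid oxidation, and 4 and 5 in oxidative phosphorylation. Of 26 genes of glycolysis and the pentose phosphate path 3 were higher, among them Pkm, pyruvate kinase, at 8.96 ± 0.18 in the O3 arrays and 8.22 ± 0.11 in the air arrays (difference 0.73 ± 0.10, adjusted p 0.00557), and the count was 7 without O3 replicate 2 and 1 without O3 replicate 3, air replicate 1, air replicate 2, air replicate 4 or the 2 arrays high in Ucp1. Of 24 genes of branched-chain amino acid breakdown 2 were lower, a count of 4 without O3 replicate 2. In the fit of 12 arrays limma called 0 in both of these lists (5 higher in the first and 2 lower in the second at an unadjusted p under 0.05). The linear model without moderation, fitted to the 8 arrays, called 1 in each. Aldh6a1, of valine breakdown, read 7.75, 7.69, 7.98 and 7.99 in the O3 arrays, against 8.52, 8.52, 8.78 and 8.51 in the air arrays, without overlap (difference -0.73 ± 0.10, adjusted p 0.00531), and Mcee, the epimerase of the propionate path, fell (difference -0.82 ± 0.14).

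The 21 other cell type lists held 0 to 3 calls each. The highest shares, 25% against 7.83% of all genes, were those of dendritic cells and of the mesothelium, the lining of the pleura. Of 12 dendritic cell genes Ccl22 and the actin bundler Fscn1 were higher and the lectin Cd209a lower. The rises numbered 1 without O3 replicate 4, air replicate 1, air replicate 2 or air replicate 3 and without the 2 arrays high in Ucp1, and no rise was left without air replicate 4. The fall of Cd209a was lost without O3 replicate 1, air replicate 1, air replicate 2 or air replicate 3, and 3 genes were lower without O3 replicate 2. Of 8 mesothelial genes Krt19, shared with other epithelia, was higher and Gpm6a, a membrane glycoprotein, lower, the fall being lost without O3 replicate 1, O3 replicate 3, air replicate 1, air replicate 2 or air replicate 4. In endothelial cells 2 of 20 were lower, the angiopoietin receptor Tek and the apelin receptor Aplnr, 3 without O3 replicate 2 and 1 without O3 replicate 4, and both calls were lost without any other single array and without the 2 arrays high in Ucp1. Of 18 neutrophil genes Lcn2 and Ltf were higher, while the list's median was -0.54 and only 3 of the 18 differences were positive. Lists of smooth muscle cells and pericytes, of B and plasma cells and of fibroblasts, with 14 genes each, had 1 call each.

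Some lists are not described, with shares called above the 7.83% of all genes. These were heme and iron handling (27.3%), the circadian clock (21.1%), arginine, nitric oxide and polyamines (20%) and glutathione synthesis (19.2%). Lysophospholipid acyltransferases (18.8%) and acute-phase genes (18.2%) were further ones. In the fit of 12 arrays each of them held at most 1 call. The lists named next held at most 1 call each in the fit described. None of 13 goblet cell genes, 18 of alveolar type 2 cells, 10 of basal cells, 15 of alveolar macrophages, 18 of monocytes and recruited macrophages or 21 of T and NK cells was called by limma or by the linear model without moderation, and their medians lay between -0.14 and 0.02. At an unadjusted p under 0.05 limma gave 2, 2, 1, 1, 2 and 1 higher and 2, 4, 0, 3, 6 and 1 lower in these 6 lists in turn. In alveolar type 1 cells 1 of 15 was lower, Rtkn2, which read 6.66, 9.09, 8.27 and 8.07 in the O3 arrays, against 9.78, 9.84, 9.81 and 9.87 in the air arrays. The air arrays agreed within 0.09 while the O3 arrays spread over 2.43, replicate 1 being lowest (difference -1.80 ± 0.42, adjusted p 0.0352, 0.0083 to 0.229 over the alternatives), and the call was lost without O3 replicate 3, O3 replicate 4, air replicate 1, air replicate 2, air replicate 3 or air replicate 4. Of 28 interferon-stimulated genes 1 was lower, Usp18, a brake on interferon signalling (-0.87 ± 0.20, adjusted p 0.0324, 0.00958 to 0.26, lost without O3 replicate 1, O3 replicate 3, air replicate 1, air replicate 2, air replicate 3 or air replicate 4), and none of 11 genes of MHC class II was called by either model (1 higher and 1 lower at an unadjusted p under 0.05 by limma), with a median of -0.26.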

How the data were processed

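Left lung RNA had been hybridised to Affymetrix mouse gene arrays, and the submitters' processing notes name oligo, RMA and limma, whose versions are not given in the sources used here. The deposited values are on the log2 scale, background-corrected, quantile-normalized and summarised by the authors with RMA for each of 35556 probe sets, and both deposited tables held the same values (largest difference 0). The authors' own fold changes, p values and related statistics, held in further columns, were not used. Symbols were compared with the array's annotation and updated to RefSeq names (2648 updated). Probe sets with conflicting names (455) or date-like symbols (2) were left out. Where a gene had several probe sets, that with the highest mean of the 8 arrays stood for it, which left 21490 genes. For 1237 of these the probe set used matches several genes, and none of them is named with values.

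The 4 O3 and 4 air arrays were fitted with limma 3.58.1 in R 4.3.3 (lmFit and eBayes, 1 mean per group, 6 residual and 2.88 prior degrees of freedom), two-sided, with Benjamini-Hochberg adjustment over all 21490 genes and a threshold of 0.05. An exact permutation test over the 70 assignments was added for single genes. The steps were tested on simulated data. The number of arrays limits the precision.

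Genes to be named were the 15 largest rises and falls among called genes whose groups do not overlap and the 10 smallest p values (predicted or clone genes, receptor segments and probe sets of several genes left out), up to 6 called members with the smallest p in each of 66 lists (the smallest p where none was called), 5 genes that the paper names and 8 defining markers; some of them are not described. The members and lists were chosen with earlier results of these data known. Promoters were searched by letters on both strands in 300-base RefSeq windows (GRCm38.p6), matched for 15128 genes, and no motif searched contains another.

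Alternatives were the other table, quantile normalization, median subtraction, leaving out the dimmest 40% of genes, the mean of a gene's probe sets, probe sets of 1 gene, array weights, a trended and robust variance, all 12 arrays, a replicate block, no moderation, other thresholds, each array left out and the 2 arrays high in Ucp1 left out. Those 2 arrays as a block, and all probe sets tested singly, were added after seeing the data.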

Additional observations from a re-analysis of the deposited data

Results flagged for a closer look

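For 146 genes, most of them named above, 292 groups of 4 arrays were examined. In 18 of these groups a single array lay apart from the other 3 by Dixon's criterion (its gap as a share of the group's range), and chance flags about 1 group in 20. Most of these gaps were small. Among the falls, Iqca read 6.20 in O3 replicate 4 (5.73 to 5.75 in the other O3 arrays), Mdh1b 3.50 in O3 replicate 1 (3.67 to 3.68), Cat 9.94 in O3 replicate 4 (9.54 to 9.59) and Cbr2 10.79 in O3 replicate 2 (11.17 to 11.23). On the air side Aldh1a1 read 11.33 in air replicate 1 (11.50 to 11.52 in the other air arrays), Cyp39a1 9.20 in air replicate 4 (9.05 to 9.08) and Aldh6a1 8.78 in air replicate 3 (8.51 to 8.52).

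Among the rises, O3 replicate 2 was the low array for Slc7a11 at 6.17 (7.81 to 8.12 in the other O3 arrays), Stat3 at 9.52 (9.82 to 9.87) and Nrg1 at 5.80 (6.44 to 6.56). In the air group Timp1 was high in replicate 1 at 7.93 (4.54 to 4.90 in the other air arrays), while Hbegf was low in replicate 2 at 7.44 (8.03 to 8.14), Mybbp1a low in replicate 2 at 5.74 (5.90 to 5.92) and Clu low in replicate 4 at 8.07 (8.43 to 8.50).

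Genes of muscle and brown fat, none of which was called, also stood apart in single arrays. Acta1 read 9.35 in O3 replicate 4 (4.52 to 4.93 in the other O3 arrays) and 9.01 in air replicate 3 (5.15 to 5.26 in the other air arrays). The muscle creatine kinase gene Ckm read 5.72 in O3 replicate 4 (4.59 to 4.70), and Ucp1 read 10.12 in air replicate 3 (3.82 to 4.03). Ucp1 in O3 replicate 4, at 10.20, did not meet the criterion because the other O3 arrays ran as high as 5.08.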

How the results depend on the processing

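The count of 1682 called genes (1052 higher, 630 lower) moved with the fit. Every gene kept its direction under each alternative except 2 of the 1614 that could be tested with probe sets of 1 gene. The fits of 12 arrays, without moderation and with a trended variance keep both group means, so no direction could change there. In 1020 of the higher and 618 of the lower genes the groups do not overlap, so leaving out an array could not turn them. All 12 arrays gave 223 (127 higher, 96 lower), array weights 2559 (1647 higher), no moderation of the variance 605 (332 higher, 273 lower) and, at an unadjusted p under 0.05, 4666 (2696 higher, 1970 lower). Without the 2 arrays high in Ucp1 the count was 891 (473 higher, 418 lower), while those arrays as a block, chosen after seeing the data, gave 2116. Adjusted p under 0.01 left 434 (227 higher, 207 lower), under 0.1 gave 2886 (1820 higher, 1066 lower), and a 2-fold change in addition to 0.05 left 331 (161 higher, 170 lower). Leaving out single arrays gave 735 to 2657 genes, 410 to 1807 higher and 318 to 850 lower, and 170 genes (95 higher, 75 lower) were called under every alternative that tests them. Quantile normalization gave 1432, of which 52.6% were higher, against 62.5% in the fit described. The replicate number as a block gave 1121 (398 lower). Same-numbered arrays deviated with r of 0.110, 0.293, -0.203 and -0.411, and O3 replicate 4 and air replicate 3 with r of 0.705. These values cannot tell whether the numbers pair the groups, since the 2 arrays high in Ucp1 also sway the other pairs. Ucp1, not called, ranged from -1.10 to 1.89 and Acta1 from -1.42 to 0.68 with 1 array left out, changing sign. The cause of these changes was not tested.

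Of 6395 genes averaging under 4, limma called 11 higher and 49 lower. The smallest permutation p, 0.029, is fixed by the 70 assignments.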

Other observations

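Of 320 microRNA genes on the array 13 were called lower and none higher, and of 140 pseudogenes 16 were lower and none higher, against 569 lower and 1040 higher among 19574 protein-coding genes. Of 500 long noncoding RNA genes 9 were lower and 6 higher. The microRNA probe sets were taken by gene symbol, and whether they read the hairpin, its precursor or other loci was not tested.

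Outside the comparison, 4 more arrays came from O3-exposed mice, and their values are given without a test for 5 genes chosen after the values were seen. Dynlrb2 read 5.54, 8.30 and 6.13 in replicates 1, 2 and 4 of the db/db group given anti-IL-17A and 7.63 in the wild-type array. Hydin read 5.45, 6.53 and 4.50 in the anti-IL-17A arrays and 5.77 in the wild-type array. The same arrays gave 6.61, 5.25 and 6.91 with anti-IL-17A and 7.34 in the wild type for Il6, 6.98, 5.16 and 8.26 with anti-IL-17A and 7.58 in the wild type for Tnc, and 11.44, 8.69 and 11.13 with anti-IL-17A and 10.37 in the wild type for Mt2. For these 5 genes anti-IL-17A replicate 2 lay outside the range of the isotype O3 arrays, on the side of the air arrays. The wild-type array did so for Dynlrb2, Hydin and Mt2, and anti-IL-17A replicate 1 for Hydin, Il6 and Tnc.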
